A study of Mus musculus with 12 samples.

Results

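The histone cluster genes of the mouse were followed here through a study of the TRAMP mouse, a transgenic model of prostate cancer, some of them fed phenethyl isothiocyanate (PEITC), which is found in cruciferous plants. The members were all genes whose symbol starts with Hist1h, Hist2h, Hist3h or Hist4h, together with H1f0 and H1fx, and they numbered 70 of the 24421 genes in the deposited tables. By type they were 8 linker histone H1 genes, 18 H2A, 19 H2B, 12 H3 and 13 H4 genes. Of these, 54 carry the Hist1 name, 10 the Hist2, 3 the Hist3 and 1 the Hist4 name. H1f0 and H1fx lie outside the clusters, on chromosomes 15 and 6. RNA was measured in 12 libraries: TRAMP mice (strain C57BL/6-Tg(TRAMP)8247Ng/J) on control AIN93M diet at 16 weeks (2 libraries) and 24 weeks (2), TRAMP mice on the same diet with 0.05% (w/w) PEITC at 16 weeks (2) and 24 weeks (2), wild type C57BL/6 mice on control diet at 16 weeks (1) and 24 weeks (2), and a tumor of a TRAMP mouse on control diet at 24 weeks (1). The prostate libraries came from the ventral and dorsolateral lobes, and the lobe of the tumor is not known. The TRAMP transgene drives the SV40 early region, with its T antigens, from the probasin promoter, so it acts in prostate epithelium. The labels do not say that replicates were separate animals, so p-values measure the spread between these libraries, which may be technical. In these bulk tissues, fewer cells of a type and less RNA per cell cannot be told apart.

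Core histones H2A, H2B, H3 and H4 form the protein spool of the nucleosome, and linker histone H1 binds the DNA where it enters and leaves the spool. Most histone proteins are made in S phase from many nearly identical genes without introns, whose messages end in a conserved stem-loop in place of a poly(A) tail and are bound there by the stem-loop binding protein Slbp. A smaller number of histone genes, among them the replacement linker histone gene H1f0, give polyadenylated messages and are used outside S phase too. The library protocol in the labels is the standard Illumina one for total RNA, with no statement on poly(A) selection, so how well messages without a tail were captured is not given in the sources used here.

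Because the end of the message separates these classes, the annotated transcripts of the members were searched after the stop codon, on the transcript strand, for the consensus of the histone stem-loop. Of the 69 members with a coding part, 16 had models that ended within 40 bases of the stop codon and could not be searched. The stem-loop was found in 43 of the other 53, in 6 spellings. It is shown for abundant members, for members that changed and, as the only one with its spelling, for Hist2h2ac, with the stem-loop in capitals and up to 5 bases on each side.
Hist1h1c (H1): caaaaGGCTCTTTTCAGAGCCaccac
Hist3h2a (H2A): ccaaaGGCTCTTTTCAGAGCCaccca
Hist2h2ac (H2A): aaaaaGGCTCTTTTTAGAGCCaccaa
Hist1h2bg (H2B): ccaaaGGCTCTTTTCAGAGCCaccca
Hist3h2ba (H2B): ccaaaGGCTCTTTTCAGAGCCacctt
Hist1h3c (H3): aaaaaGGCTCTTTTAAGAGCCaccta
Hist1h4h (H4): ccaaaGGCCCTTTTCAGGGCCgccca
Hist1h4i (H4): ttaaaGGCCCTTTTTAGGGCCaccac
Hist1h4j (H4): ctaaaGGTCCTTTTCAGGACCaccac
The spelling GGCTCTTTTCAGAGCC stood in 25 members of types H1, H2A, H2B and H3. The H4 genes had spellings of their own: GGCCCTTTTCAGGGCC in 7, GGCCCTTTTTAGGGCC in 2 and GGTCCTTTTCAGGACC in 2. No match was found in H1f0, H1fx, Hist1h2bc, Hist2h2be, Hist1h3g, Hist1h4a, Hist1h2bp, Hist1h1a, Hist1h2br and Hist1h2bq, which says only that these letters are not in their annotated ends.

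The GENCODE models of 22 members ran more than 100 bases past the stem-loop, and 13 of them averaged 2 FPKM or more over the 12 libraries, with a median over the 22 of 2.51 FPKM. FPKM scales a gene's fragments by its length and by the library's total, so it compares genes per length. In the 21 members whose models stop within 100 bases after the stem-loop, 3 averaged 2 FPKM or more, and the median was 0.467 FPKM. This is a description of levels and of annotated models, with no test. The step between values matched the length of RefSeq, another annotation, in 31 of the 42 members that could be checked. Among them was Hist1h2ac, with 487 bases in RefSeq and 2482 in GENCODE. For such members the FPKM did not rest on the GENCODE model, so the levels do not show that messages run past the stem-loop.

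The promoters are shown for 5 members. Hist3h2ba and H1fx were called higher in TRAMP than in wild type at both ages. Hist1h1c and Hist1h2bg were called lower in TRAMP at 16 weeks alone. The window of Hist1h2ac also holds the start of the divergent Hist1h2bc. Sequences are from RefSeq (GRCm38.p6, the assembly of mm10), 5′ to 3′ on the gene's strand, 300 bases ending 50 after the start. Capitals mark matches on either strand to ATTTGCAT (the octamer bound by Oct1), CCAAT (the core of the NF-Y site), TATAAA (the TATA box) and, in H1 genes, AAACACA (the H1 box).
Hist3h2ba, chr11:58948661-58948960, plus strand: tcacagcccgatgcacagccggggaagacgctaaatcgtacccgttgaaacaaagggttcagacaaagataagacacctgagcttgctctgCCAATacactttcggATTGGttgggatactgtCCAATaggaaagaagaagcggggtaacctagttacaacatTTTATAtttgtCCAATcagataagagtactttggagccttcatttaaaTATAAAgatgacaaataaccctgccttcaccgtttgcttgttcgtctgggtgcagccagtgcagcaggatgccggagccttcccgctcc
Hist1h2bg, chr13:23571150-23571449, plus strand: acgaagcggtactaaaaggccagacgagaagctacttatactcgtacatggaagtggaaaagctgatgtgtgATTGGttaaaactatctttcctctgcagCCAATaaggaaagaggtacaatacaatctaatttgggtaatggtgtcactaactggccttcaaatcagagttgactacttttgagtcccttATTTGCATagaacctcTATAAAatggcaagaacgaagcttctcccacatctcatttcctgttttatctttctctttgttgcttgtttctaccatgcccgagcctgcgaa
Hist1h2ac, chr13:23683910-23684209, minus strand: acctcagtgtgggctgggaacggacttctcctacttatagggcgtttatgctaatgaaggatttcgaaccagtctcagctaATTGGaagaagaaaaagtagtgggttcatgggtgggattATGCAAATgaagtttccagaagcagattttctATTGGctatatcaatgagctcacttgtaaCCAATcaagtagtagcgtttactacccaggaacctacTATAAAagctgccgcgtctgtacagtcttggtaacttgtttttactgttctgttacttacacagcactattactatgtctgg
Hist1h1c, chr13:23738557-23738856, plus strand: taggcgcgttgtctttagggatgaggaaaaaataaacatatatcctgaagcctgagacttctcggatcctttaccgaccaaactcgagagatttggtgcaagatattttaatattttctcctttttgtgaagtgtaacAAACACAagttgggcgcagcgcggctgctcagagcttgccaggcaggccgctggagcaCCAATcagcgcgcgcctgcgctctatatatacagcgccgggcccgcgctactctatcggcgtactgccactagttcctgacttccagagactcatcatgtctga
H1fx, chr6:87981433-87981732, minus strand: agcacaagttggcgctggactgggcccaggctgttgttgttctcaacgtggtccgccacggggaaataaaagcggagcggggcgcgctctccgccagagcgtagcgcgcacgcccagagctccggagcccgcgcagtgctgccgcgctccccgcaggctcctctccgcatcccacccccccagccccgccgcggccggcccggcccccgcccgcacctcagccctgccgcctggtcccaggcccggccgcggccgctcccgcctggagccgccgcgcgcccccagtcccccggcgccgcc
A promoter was listed for 64 of the 70 members. The octamer stood in 7 of 18 H2A promoters (38.9%) and 6 of 16 H2B promoters (37.5%), in none of the 8 H1, 10 H3 or 12 H4 promoters, and in 1.75% of all 27025 promoters of the same length. CCAAT stood in all 18 H2A, 16 H2B and 10 H3 promoters, in 6 of 8 H1 and 3 of 12 H4 promoters, and in 37.9% of all promoters. TATAAA was present in 54.7% of the members' promoters against 14.2% of all. The H1 box stood in 5 of 8 H1 promoters (62.5%), Hist1h1c among them and H1fx and H1f0 not, against 7.14% of all promoters. Windows of head-to-head H2A and H2B partners overlap, so the same match can count under both types, and those counts are not separate. A match is a description of the letters and not a measured binding site.

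The whole set of libraries bears on every value below. Values in a library summed to between 395678 and 467650 FPKM, and the relative depth, read from the smallest step between values, differed by 1.57 times between the deepest and the shallowest library. The wild type libraries, the tumor and replicate 0 of the TRAMP PEITC group at 16 weeks were the shallow ones (0.635 to 0.699 of the deepest), and the other libraries had 0.854 to 1. Between 52 and 61 of the 70 members were above 0 in a library. Defining luminal secretory markers of the prostate were present in every library, with sums that ran from 23935 to 28019 FPKM in wild type, from 4414 to 8090 in the 8 TRAMP prostates, and stood at 3705 in tumor tissue. Seminal vesicle markers summed to 7816 FPKM in the single 16-week wild type library and to 8.02 or less in every other library, a tissue that its label does not name. Basal markers summed to 104 to 134 FPKM in wild type and 26.6 to 48.9 in the TRAMP prostates, smooth muscle markers to 680.4 to 804 against 261 to 589, and macrophage markers to 37.7 to 44.2 against 62.4 to 201. Neuroendocrine markers summed to 32.0 FPKM in 1 of the TRAMP PEITC libraries at 24 weeks and to 4.09 or less elsewhere. Germ cell markers summed to at most 1.501 FPKM, with Tnp1 at 0. The part of these other cell types in the results was not tested.

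RNA of the histone genes was concentrated in a few members. Hist1h1c, the gene of linker histone H1.2, averaged 158 FPKM over the 12 libraries and H1f0 119 FPKM, and these 2 held 48.0% of the mean sum over all 70. The next were Hist1h2bc (69.3 FPKM), Hist3h2a (63.1), H1fx (37.9), Hist1h2bg (24.1), Hist1h4i (18.3) and Hist1h4h (13.1), and the 10 most abundant members held 89.8%. In all, 8 members averaged 10 FPKM or more. The tests covered the 42 members with a mean of at least 0.5 FPKM: 6 H1, 7 H2A, 11 H2B, 7 H3 and 11 H4 genes. Just inside that limit lay Hist1h3a (0.519 FPKM) and Hist1h4a (0.508), and just outside Hist2h3b (0.472) and Hist1h2bk (0.467). Of the 28 members outside it, 7 were listed at 0 in all 12 libraries: Hist1h2bq, Hist1h2br, Hist1h2ap, Hist1h2aa, Hist2h3c1, Hist2h3c2 and Hist2h2aa1.

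Those zeros have to be read with the likeness of the genes. Each coding part was cut into windows of 50 bases, and the share of windows found in no other gene away from its own locus was counted. That share was 0 for 6 of the 7 members listed at 0, and 97.7% for Hist1h2aa, the gene of a testis H2A. Over the 63 members above 0 in at least 1 library it ranged from 0 to 100%, with a median of 28.5%, and 29 of the 42 tested members had under 50%. It was 100% for H1f0, H1fx, Hist1h1a, Hist1h1b, Hist1h1t, Hist2h2bb, Hist2h2be and Hist4h4, 87.8% for Hist3h2a, 78.1% for Hist1h1c and 62.3% for Hist3h2ba, and only 27.4% for Hist1h4h, 14.8% for Hist1h2bg and 2.41% for Hist1h2bc. Values of members with a low share are uncertain, because the authors' counting could have split or dropped fragments that match several copies. Of the members, 26 overlap an annotated gene on the same or the other strand, among them Hist3h2a, Hist1h2be with Hist1h1e, and H1fx, and use of strand in the counting is not stated.

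**Figure D1:**
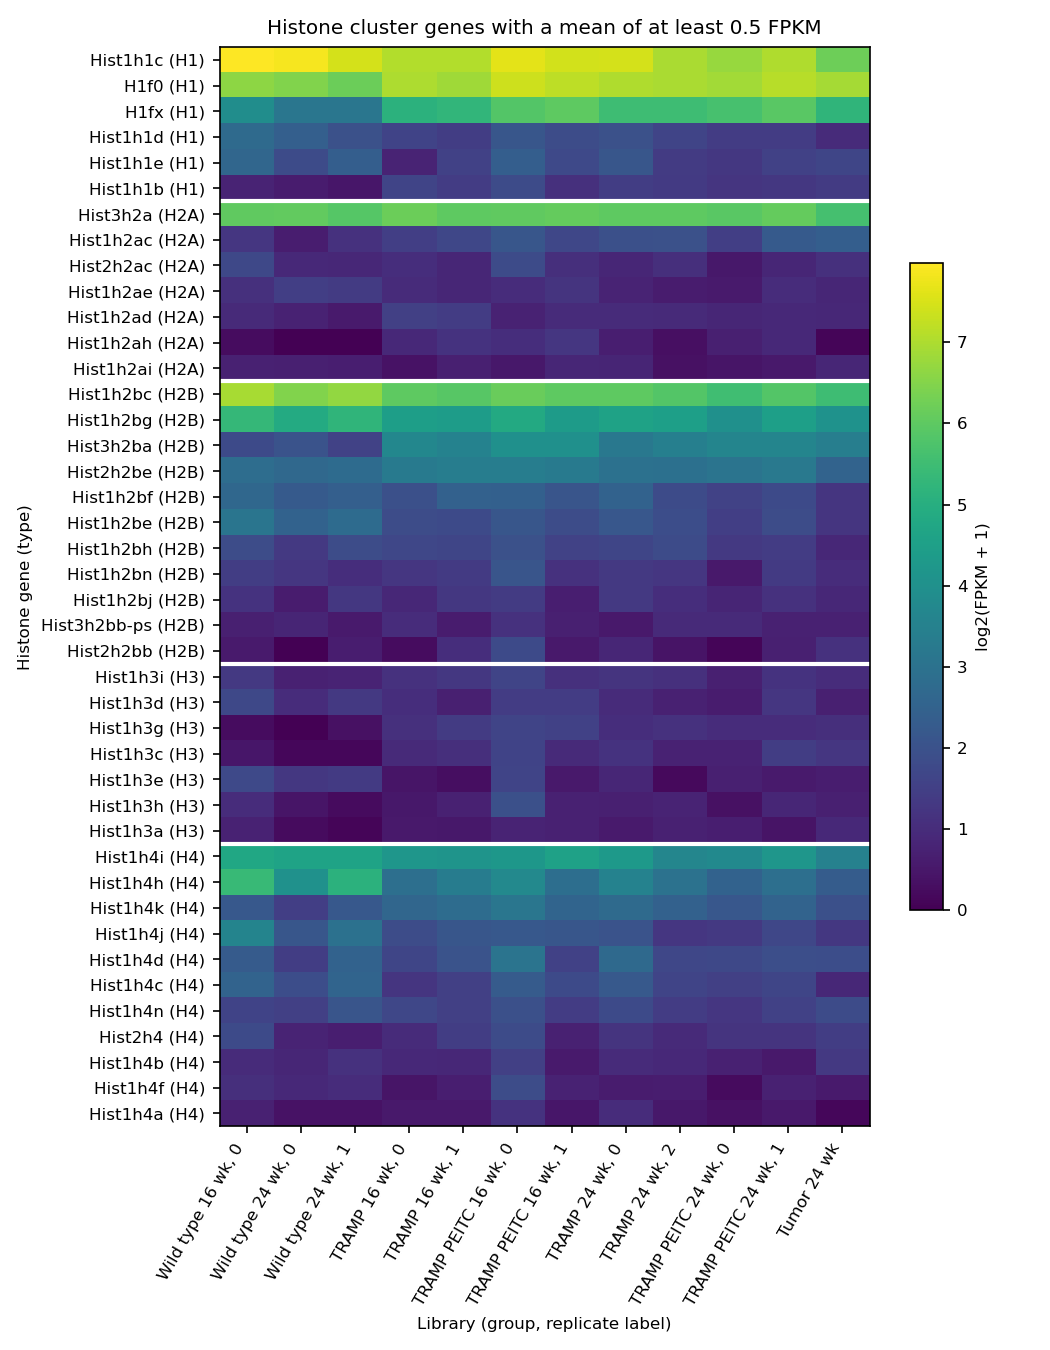
Heat map of log2(FPKM + 1) for the 42 members with a mean of at least 0.5 FPKM (vertical axis, by histone type and, within a type, by mean level) in the 12 libraries (horizontal axis, group and replicate label). Hist1h1c, H1f0, H1fx, Hist3h2a and Hist1h2bc stand out as the bright rows, while no H3 gene reaches a mean of 2 FPKM.

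TRAMP against wild type prostate asks how the histone genes differ in the transgenic gland. At 24 weeks on control diet, 14 of the 42 tested members passed (limma, Benjamini-Hochberg adjusted p under 0.05), 9 higher and 5 lower in TRAMP. The background over all 13375 tested genes was 45.0% called, 23.0% higher and 22.0% lower. At 16 weeks 16 members passed, 6 higher and 10 lower, against a background of 33.6%, with 18.1% higher and 15.4% lower. The 16-week control is a single wild type library. With the 24-week wild type libraries as the control, 10 were higher and 8 lower, and the members' median was 0.10. Over all 13375 tested genes 5626 were called with that control. Of the 16 calls 13 were kept, and those lost were Hist1h1e, Hist1h3e and Hist1h4j, all on the lower side. The share of members called, 33.3% at 24 weeks and 38.1% at 16 weeks, is therefore of the order of the background, and a call as such is no property of these genes. The median log2 fold change over the 42 was 0.11 at 24 weeks and −0.18 at 16 weeks, beside −0.00 and 0.02 over all tested genes. The 24-week median was −0.22 over the 21 members that averaged 2 FPKM or more. It was −0.05 with quantile normalization and −0.04 without wild type replicate 0, and positive under the other alternatives, so its sign was not stable. The split over all genes moved with the scaling: at 24 weeks 51.1% of calls were higher, and 66.6% when scaling ignored the 50 genes of highest level and 40.5% with a GC trend removed. The members then split 12 higher and 4 lower, and 8 higher and 7 lower. At 16 weeks 54.1% of calls were higher, and 70.3% when scaling ignored those 50 genes, where the members split 6 higher and 9 lower.

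Called at both ages were 7 members, and each kept its direction: H1fx, Hist3h2ba, Hist1h3g and Hist1h2ah were higher in TRAMP, and Hist1h2bc, Hist1h2be and Hist1h4h were lower. The 2 ages use different wild type and TRAMP libraries but the same estimate of the spread. The filter takes the mean over all 12 libraries, most of them TRAMP or tumor, so it favors members high there. Hist1h2ah and Hist1h3g passed it only through those libraries, with wild type means of 0.19 and 0.20 FPKM at 16 weeks and 0 and 0.14 at 24 weeks. Hist1h3c and Hist1h3a, called higher at 24 weeks alone, had wild type means of 0.09 and 0.14 there. The split into higher and lower calls can be tilted by this. Another 7 were called at 24 weeks alone and 9 at 16 weeks alone, and for the difference between ages only H1fx passed. The matching counts of calls at both ages over all tested genes were not made. With backgrounds of 45.0% and 33.6% called, these counts are not read as a trait of the members.

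**Figure D2:**
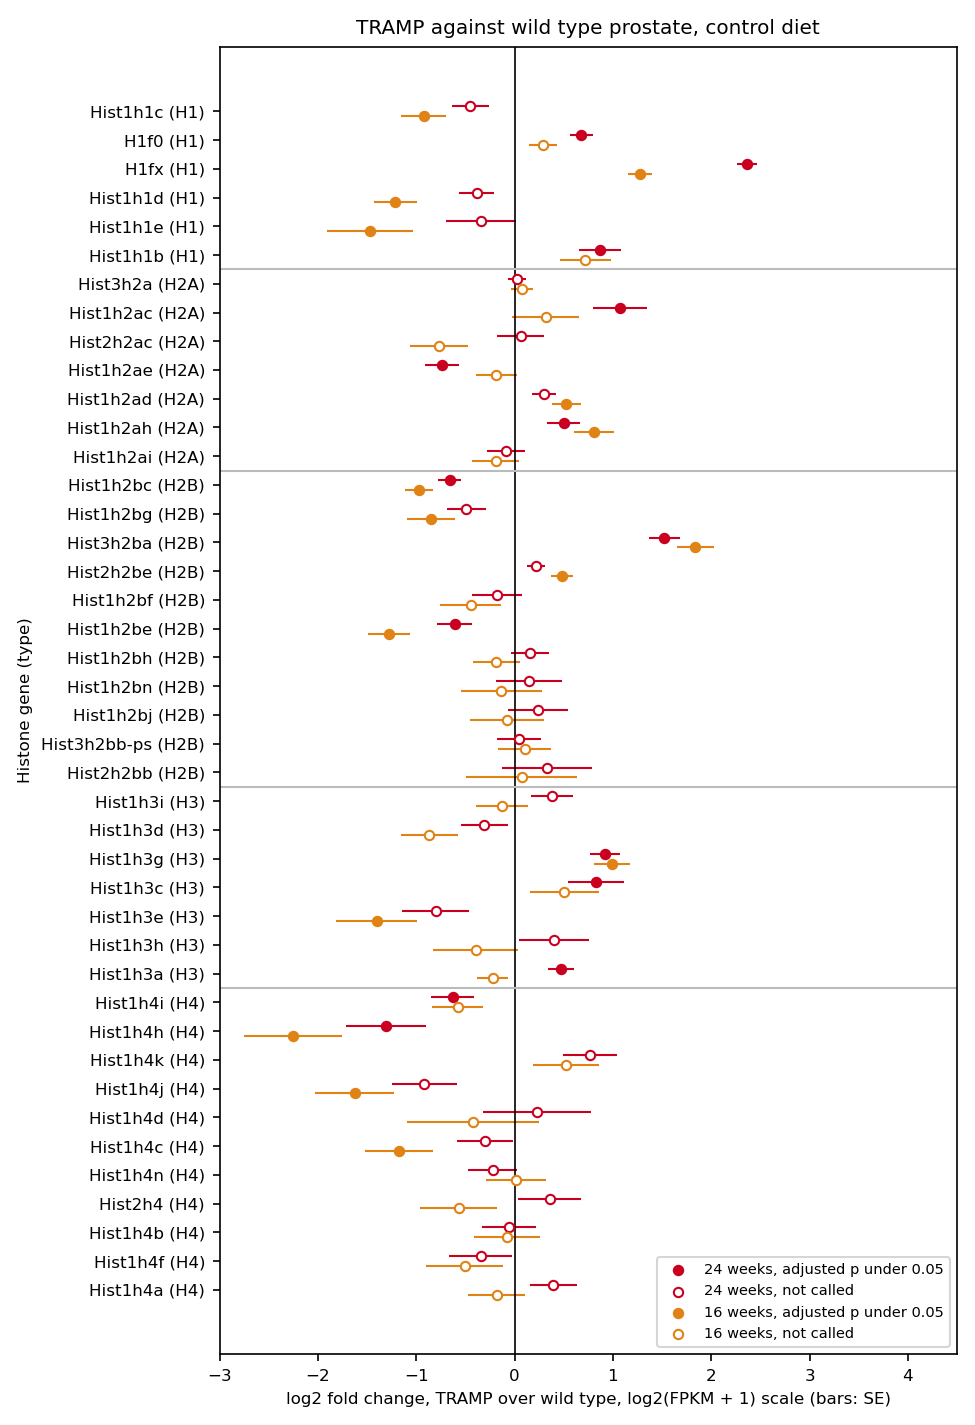
Log2 fold change of TRAMP over wild type prostate on control diet (horizontal axis, log2(FPKM + 1) scale, bars are standard errors) for the 42 tested members (vertical axis, by type) at 24 weeks (red) and 16 weeks (orange), filled where the adjusted p is under 0.05. H1fx at 2.36 and 1.28 and Hist3h2ba at 1.52 and 1.84 lie farthest to the right, and Hist1h4h at −1.31 and −2.25 is the leftmost at both ages.

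Among the linker histones, H1fx showed the largest rise. H1fx (chromosome 6, 87980421 to 87981637, 1 exon) codes for a linker histone variant outside the clusters whose message carries no stem-loop match. Its level was 7.78 and 7.81 FPKM in wild type at 24 weeks and 14.05 at 16 weeks. It was 33.7 and 37.2 in TRAMP at 16 weeks, 44.4 and 44.2 in TRAMP at 24 weeks, and 36.6 in the tumor. All 9 TRAMP and tumor libraries lay above all 3 wild type libraries. The log2 fold change was 2.36 ± 0.10 (SE, adjusted p = 4.95e-06) at 24 weeks and 1.28 ± 0.13 (adjusted p = 0.000377) at 16 weeks, and both calls held under every alternative tried.

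H1f0, the replacement linker histone of resting and differentiated cells, had 87.1 and 71.6 FPKM in wild type and 129.8 and 124 in TRAMP at 24 weeks, a log2 rise of 0.68 ± 0.12 (adjusted p = 0.00256). At 16 weeks it had 97.5 FPKM in wild type and 126 and 113 in TRAMP, and the difference of 0.29 ± 0.14 did not pass (adjusted p = 0.155). Hist1h1b, the gene of H1.5, had 0.520 and 0.397 FPKM in wild type and 1.73 and 1.58 in TRAMP at 24 weeks (log2 0.86 ± 0.21, adjusted p = 0.0129). That call was lost without wild type replicate 1 (adjusted p = 0.068) or TRAMP replicate 0 (0.054).

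The abundant cluster H1 gene moved the other way. Hist1h1c had 251 FPKM in wild type at 16 weeks and 133 and 131 in TRAMP, a log2 fall of −0.92 ± 0.23 (adjusted p = 0.0178) that missed the threshold without either TRAMP library (0.051 and 0.055). At 24 weeks the wild type libraries had 232 and 175 FPKM and the TRAMP libraries 175 and 124, so the groups met, and the difference of −0.45 ± 0.19 did not pass (adjusted p = 0.0850). Hist1h1d, the gene of H1.3, had 5.71 FPKM in wild type and 2.04 and 1.76 in TRAMP at 16 weeks (−1.21 ± 0.22, adjusted p = 0.00468), and Hist1h1e, the gene of H1.4, had 5.23 against 0.734 and 1.92 (−1.47 ± 0.44, adjusted p = 0.0354). The Hist1h1e call was lost without TRAMP replicate 0 (−1.09, adjusted p = 0.121) and with the 24-week wild type as the control (−0.93, adjusted p = 0.0704), while that of Hist1h1d held in every alternative. At 24 weeks Hist1h1d and Hist1h1e differed by −0.38 and −0.34 and were not called. Over the whole type, H1 RNA summed to 298 ± 50.9 FPKM (SD, n = 2) in wild type and 328 ± 42.4 in TRAMP at 24 weeks, a ratio of 1.10. With 1 library left out the log2 ratio ran from −0.03 to 0.32, so its direction turned. Without Hist1h1c the log2 ratio of the sums was 0.91 at 24 weeks and 0.38 at 16 weeks. The most abundant H1 genes lay closer together in TRAMP: at 24 weeks Hist1h1c and H1f0 had 203 ± 40.2 and 79.3 ± 10.9 FPKM in wild type (SD, n = 2), and 149 ± 36.3 and 127 ± 3.99 in TRAMP. Hist1h1a reached at most 0.441 FPKM, and Hist1h1t, the testis linker histone, had 0.0460 FPKM in 1 library and 0 in 11.

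**Figure D3:**
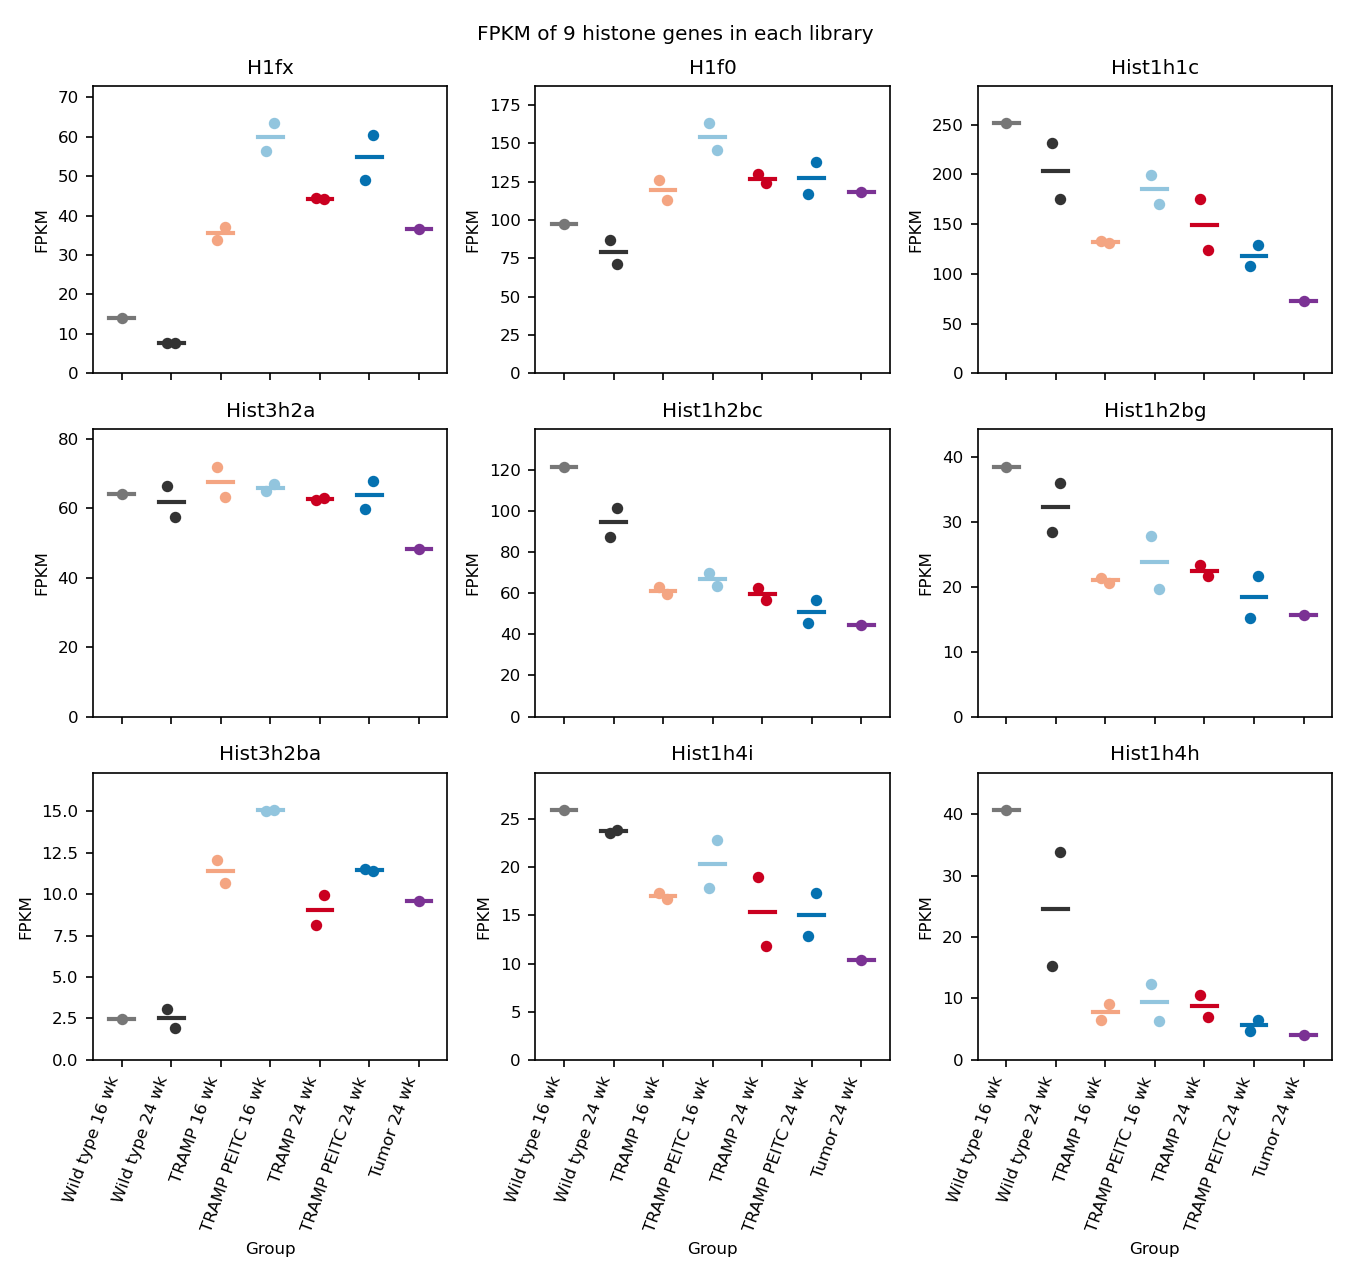
FPKM (vertical axes, from 0) of 9 members in every library, by group (horizontal axis), where points are libraries and bars group means. H1fx and Hist3h2ba are low in all 3 wild type libraries and high in the TRAMP prostates and tumor, Hist1h2bc and Hist1h4h are the reverse, and Hist3h2a lies between 57.4 and 72.0 in all libraries but the tumor.

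In the H2A genes most RNA came from Hist3h2a, whose groups overlapped at both ages. Hist3h2a, in the small cluster on chromosome 11, had 66.5 and 57.4 FPKM in wild type and 62.5 and 63.0 in TRAMP at 24 weeks, a difference of 0.02 ± 0.09 that did not pass (adjusted p = 0.868). At 16 weeks it had 64.1 FPKM in wild type and 72.0 and 63.4 in TRAMP (0.07 ± 0.11, adjusted p = 0.646). The next H2A gene, Hist1h2ac, averaged 2.37 FPKM. It had 0.566 and 1.20 FPKM in wild type and 2.83 and 2.98 in TRAMP at 24 weeks (1.07 ± 0.28, adjusted p = 0.0158), and the call was lost without wild type replicate 0 (0.82, adjusted p = 0.091) or either TRAMP library (0.051 and 0.062). Hist1h2ae had 1.81 and 1.62 FPKM against 0.729 and 0.532 at 24 weeks (−0.74 ± 0.17, adjusted p = 0.00954), a call lost without TRAMP replicate 2 (adjusted p = 0.052).

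Hist1h2ah was listed at 0 in both wild type libraries at 24 weeks, with 0.599 and 0.253 FPKM in TRAMP, and it passed the test there (adjusted p = 0.0416), though not without either wild type library (0.115 and 0.126) or TRAMP replicate 0 (0.205). At 16 weeks it had 0.189 FPKM in wild type and 0.906 and 1.27 in TRAMP (0.81 ± 0.21, adjusted p = 0.0194, and 0.075 without TRAMP replicate 1). Hist1h2ad had 0.920 FPKM in wild type and 1.83 and 1.70 in TRAMP at 16 weeks (0.53 ± 0.15, adjusted p = 0.0279), lost without either TRAMP library (0.085 and 0.059), and at 24 weeks 0.30 ± 0.12 did not pass (adjusted p = 0.0768). Hist2h2ac and Hist1h2ai were called in no comparison. The H2A values below 3 FPKM rest on few fragments: the step between values puts Hist1h2ac at 6 to 55 fragments, Hist1h2ae at 8 to 22 and Hist1h2ah at 0 to 20 across the libraries. Of the 11 H2A genes that were not tested, Hist1h2ak was the highest at a mean of 0.437 FPKM.

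The H2B genes held both the largest rise and the most abundant fall among the core histones. Hist3h2ba (chromosome 11, 58948920 to 58949533, 1 exon), a neighbour of Hist3h2a, had 3.08 and 1.95 FPKM in wild type at 24 weeks and 2.45 at 16 weeks. In TRAMP it had 12.1 and 10.7 at 16 weeks and 8.12 and 9.92 at 24 weeks, and the tumor had 9.59. Again all 9 TRAMP and tumor libraries lay above the 3 wild type libraries. The log2 fold change was 1.52 ± 0.15 (adjusted p = 0.000199) at 24 weeks and 1.84 ± 0.19 (adjusted p = 0.000435) at 16 weeks, and both held under every alternative.

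Hist1h2bc (chromosome 13, 23684199 to 23692908), the most abundant core histone gene among the 70 members, fell. It had 87.4 and 102 FPKM in wild type and 62.3 and 56.5 in TRAMP at 24 weeks, and 121 against 62.9 and 59.6 at 16 weeks. The log2 changes of −0.66 ± 0.12 (adjusted p = 0.00293) and −0.98 ± 0.14 (adjusted p = 0.00189) held under every alternative. Hist1h2bg had 38.4 FPKM in wild type and 21.4 and 20.5 in TRAMP at 16 weeks (−0.85 ± 0.24, adjusted p = 0.0312), which was lost without either TRAMP library (0.072 and 0.089). At 24 weeks it had 28.4 and 35.9 against 23.3 and 21.6 FPKM, and −0.49 ± 0.20 did not pass (adjusted p = 0.0786). Hist1h2be had 4.68 and 5.91 FPKM against 3.51 and 2.73 at 24 weeks (−0.61 ± 0.17, adjusted p = 0.0230) and 7.61 against 2.60 and 2.49 at 16 weeks (−1.28 ± 0.21, adjusted p = 0.00326). The first of these calls was lost without wild type replicate 1 (adjusted p = 0.133) or TRAMP replicate 2 (0.12).

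Hist2h2be, on chromosome 3, is an H2B gene with no stem-loop match in its model. It had 6.23 FPKM in wild type and 8.71 and 9.49 in TRAMP at 16 weeks (0.48 ± 0.11, adjusted p = 0.0132, and 0.104 with only these groups in the fit), and 5.49 and 5.89 against 6.93 and 6.65 at 24 weeks (0.22 ± 0.09, adjusted p = 0.0826). The other tested H2B genes, Hist1h2bf, Hist1h2bh, Hist1h2bn, Hist1h2bj, Hist2h2bb and the pseudogene Hist3h2bb-ps, were not called at either age. Summed H2B RNA was 151 ± 17.9 FPKM (SD, n = 2) in wild type and 113 ± 7.15 in TRAMP at 24 weeks, a ratio of 0.748, and the ratio at 16 weeks was 0.616. Without Hist1h2bc the log2 ratio of the sums was −0.08 at 24 weeks and −0.30 at 16 weeks.

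Of the 14 head-to-head pairs with start sites at most 1000 bases apart, 13 joined an H2A to an H2B gene. In 5 pairs both partners were tested. Hist1h2ac and Hist1h2bc start 251 bases apart, on either side of the promoter printed above, yet averaged 2.37 and 69.3 FPKM. In TRAMP at 24 weeks Hist1h2ac rose by 1.07 and Hist1h2bc fell by 0.66 on the log2 scale. Hist1h2ae and Hist1h2bg, 176 bases apart, averaged 1.02 and 24.1 FPKM and differed by −0.74 and −0.49 between TRAMP and wild type. Both values are uncertain in the sense given above, since 18.02% of the windows of Hist1h2ac and 2.41% of those of Hist1h2bc were unique.

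H3 genes were the least abundant type, with sums of 4.31 to 14.99 FPKM per library and no member with a mean of 2 FPKM. Hist1h3g had 0 and 0.275 FPKM in wild type and 1.08 and 1.21 in TRAMP at 24 weeks (0.92 ± 0.15, adjusted p = 0.00204), and 0.200 against 1.17 and 1.63 at 16 weeks (0.99 ± 0.19, adjusted p = 0.00539). Both calls held under every alternative in which the gene was tested. It has no stem-loop match in its model, and its values correspond to 0 to 26 fragments. Hist1h3c had 0.0956 and 0.0939 FPKM against 1.24 and 0.687 at 24 weeks (0.83 ± 0.29, adjusted p = 0.0459), a call lost when any of the 4 libraries was left out (0.056 to 0.197). Hist1h3a had 0.183 and 0.0898 against 0.498 and 0.657 (0.47 ± 0.13, adjusted p = 0.0212), lost without wild type replicate 1 or TRAMP replicate 2 (0.101 for each). At 16 weeks Hist1h3a differed by −0.22 ± 0.16 and was not called (adjusted p = 0.316).

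Only 1 H3 gene was called lower in TRAMP, at 16 weeks alone. Hist1h3e had 2.41 FPKM in wild type and 0.359 and 0.223 in TRAMP at 16 weeks (−1.40 ± 0.41, adjusted p = 0.0329), lost without either TRAMP library (0.071 and 0.097) or with the 24-week wild type as the control (−0.95, adjusted p = 0.0520), and −0.80 ± 0.34 at 24 weeks did not pass (adjusted p = 0.0855). Hist1h3i, Hist1h3d and Hist1h3h were called in no comparison, at differences of 0.38, −0.31 and 0.41 at 24 weeks. The H3 sum was 5.19 ± 1.24 FPKM (SD, n = 2) in wild type and 6.63 ± 0.810 in TRAMP at 24 weeks, and 9.67 against 6.54 ± 0.424 at 16 weeks, so the direction of the sum was not the same at the 2 ages.

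H4 genes called at either age were all lower in TRAMP. Hist1h4h (chromosome 13, 23531050 to 23531519, 1 exon) had 40.6 FPKM in wild type at 16 weeks and 15.3 and 33.8 at 24 weeks. In TRAMP it had 6.52 and 9.16 at 16 weeks and 10.6 and 6.97 at 24 weeks, and the tumor had 4.01. All 9 TRAMP and tumor libraries lay below all 3 wild type libraries. The log2 change was −2.25 ± 0.50 (adjusted p = 0.0112) at 16 weeks, held under every alternative, and −1.31 ± 0.41 (adjusted p = 0.0323) at 24 weeks, where the call was lost without wild type replicate 1 (−0.76, adjusted p = 0.190) or TRAMP replicate 2 (−1.03, adjusted p = 0.151). It was also lost with no filter on low values (adjusted p = 0.0745) and with only these groups in the fit (0.0638).

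Hist1h4i had 23.6 and 23.8 FPKM in wild type and 18.9 and 11.8 in TRAMP at 24 weeks (−0.63 ± 0.21, adjusted p = 0.0443). That call was lost under 8 of 14 alternatives. Among these were leaving out TRAMP replicate 2 (−0.31) or either wild type library (−0.64 and −0.62), and the replicate block (−0.22). It was also lost with no filter on low values (adjusted p = 0.0923) and with only these groups in the fit (0.0850). Hist1h4j had 11.2 FPKM against 2.60 and 3.36 at 16 weeks (−1.62 ± 0.40, adjusted p = 0.0174), a call lost without TRAMP replicate 0 (adjusted p = 0.062) and, at −0.57, with the 24-week wild type as the control (adjusted p = 0.193), and Hist1h4c had 4.86 against 1.35 and 1.86 (−1.17 ± 0.35, adjusted p = 0.0341, lost without either TRAMP library at 0.108 and 0.058). At 24 weeks Hist1h4c differed by −0.30 ± 0.28 and was not called. At 24 weeks Hist1h4j differed by −0.92 ± 0.33 and narrowly missed (adjusted p = 0.0519). Hist1h4k lay on the other side, with 1.80 and 3.64 FPKM in wild type and 5.73 and 4.59 in TRAMP at 24 weeks, but 0.77 ± 0.27 did not pass (adjusted p = 0.0511). Hist1h4d, Hist1h4n, Hist2h4, Hist1h4b, Hist1h4f and Hist1h4a were called in no comparison. The H4 sum was 69.3 ± 22.6 FPKM (SD, n = 2) in wild type and 44.3 ± 14.9 in TRAMP at 24 weeks, a ratio of 0.639, and the ratio at 16 weeks was 0.443.

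**Figure D4:**
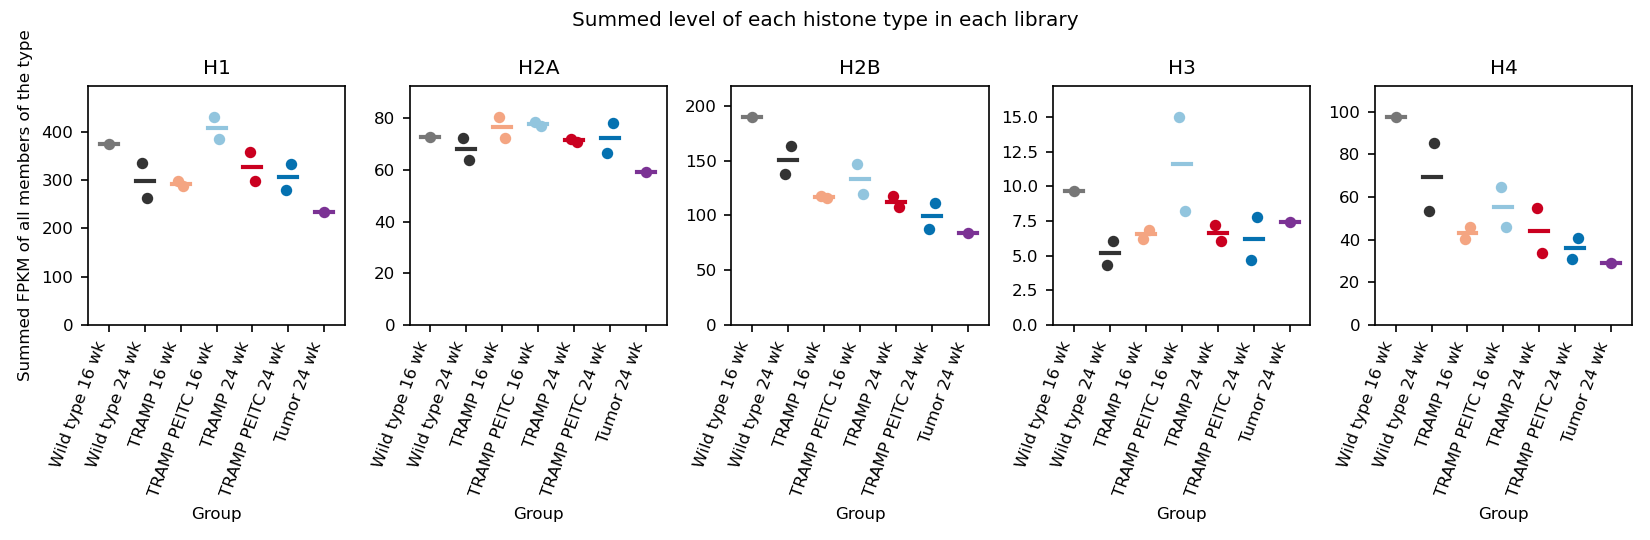
Summed FPKM of all members of each histone type (vertical axes, from 0) in every library by group (horizontal axis), where points are libraries and bars group means. H2B and H4 sums lie highest in the 16-week wild type library, at 189.8 and 97.5 FPKM, and lowest in the tumor, at 84.4 and 29.3, while H2A sums lie between 59.2 and 80.5 throughout.

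Genes of the machinery around the histone genes were counted from lists, against the background of 23.0% of tested genes higher at 24 weeks and 18.1% at 16 weeks. Of 20 DNA replication genes, 20 rose in TRAMP at 24 weeks and 19 at 16 weeks, with a median log2 fold change of 2.36 and 2.29; Mcm3, a subunit of the replicative helicase, rose by 4.01 ± 0.10 (adjusted p = 2e-06) at 24 weeks. Of the 19 tested genes of histone message synthesis and processing, 12 rose and 0 fell at each age, with medians of 0.42 and 0.74. Slbp, which binds the stem-loop, had 15.6 and 16.0 FPKM in wild type and 44.9 and 50.1 in TRAMP at 24 weeks (1.53 ± 0.07, adjusted p = 5.86e-06). Ccne1 (2.53), E2f1 (2.07), Ccne2 (1.24) and Cdk2 (1.12), which drive entry into S phase, rose too on the log2 scale. Of 23 histone chaperones and deposition factors 14 rose and 1 fell at 24 weeks and 16 rose at 16 weeks, with Chaf1b (2.97), Chaf1a (2.81) and Asf1b (2.70) rising most at 24 weeks. Histone variants outside the clusters split: of 9 tested, 5 rose and 1 fell at 24 weeks, and 3 rose and 1 fell at 16 weeks. Cenpa, the centromeric H3, rose by 2.91 ± 0.17 and H2afx by 1.70 ± 0.11, while H2afj fell by 0.45. Against these lists the cluster members' medians were 0.11 and −0.18, and the first turned negative under some alternatives. The lists and members were set side by side without a test of the difference.

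The diet comparison asks whether PEITC changed these genes in TRAMP mice. At 24 weeks 0 of 42 members passed (limma) against a background of 0% of all tested genes, with 1 member at an unadjusted p under 0.05. At 16 weeks 0 of 42 passed against a background of 0.00748%, that is 1 gene, with 9 members at an unadjusted p under 0.05. The share of all tested genes at an unadjusted p under 0.05 was not counted, here or in the comparisons below. Such counts are therefore not read as an excess in the members. In both comparisons the design has 2 libraries a group. The 24-week differences ran from −0.55 for Hist1h4h to 0.32 for Hist3h2ba, with a median of −0.15 and 30 of 42 negative. That median was −0.05 without PEITC replicate 0, −0.35 without PEITC replicate 1, −0.07 without control diet replicate 0 and −0.27 without control diet replicate 2. The 16-week differences had a median of 0.21, with 37 of 42 positive, and ran from −0.60 for Hist1h2ad to 0.91 for Hist1h1e. The difference between the PEITC effects at the 2 ages was called for 0 members (background 0.00748%), with 6 at an unadjusted p under 0.05.

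Much of the 16-week shift lay in 1 library. Replicate 0 of the TRAMP PEITC group at 16 weeks was the highest of the 8 TRAMP prostate libraries for 30 of the 42 tested members (71.4%), and for 14.7% of all tested genes. Its 34 members with a mean of 0.5 to 10 FPKM had a median of 0.46 above the median of the 8 libraries on the log2(FPKM + 1) scale, with 32 of 34 above it, and its 8 members with a mean of 10 FPKM or more had a median of 0.31. The median over all tested genes was 0.01. The same library had 24.9 FPKM of Rmrp, a non-coding RNA of a ribonuclease, against 2.21 to 7.98 in the other 11 libraries. It had 17.8 FPKM of Rpph1, the RNA of ribonuclease P, against 2.81 to 11.2. Malat1, a long non-coding RNA of the nucleus, stood at 179.9 FPKM against 58.1 to 150.1. Neither Rmrp nor Rpph1 is polyadenylated. The part of RNA selection in the histone values of this library was not tested.

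For the 34 members with a mean of 0.5 to 10 FPKM, replicate 0 of the TRAMP PEITC group at 16 weeks was the highest of the 8 for 25 and the lowest for 1. Hist1h3h had 2.88 FPKM in that library and 0.675 in its partner, and Hist1h4f 2.62 and 0.716. Hist1h2bk (1.78 and 0.293) and Hist1h2bl (1.09 and 0.0850) were too low on average to be tested. Among those lower in that library were Hist1h2ad (0.702 and 0.958), Hist1h2ai (0.419 and 0.817), Hist1h2ae (1.01 and 1.31) and Hist1h2ah (1.08 and 1.40). Without that library the median of the 16-week PEITC differences was 0.04, with 22 of 42 positive, 3 members at an unadjusted p under 0.05 and 0 called. Without its partner the median was 0.42, with 38 of 42 positive. The opposite tail was another PEITC library: replicate 0 at 24 weeks was the lowest of the 8 for 22 of 42 members and for 742 of the 13375 tested genes, with medians of −0.25 over the 34 lower members and −0.35 over the 8 abundant ones, while its Rmrp, Rpph1 and Malat1 lay at −0.15, 0.04 and 0.07 from the median on the log2 scale.

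**Figure D5:**
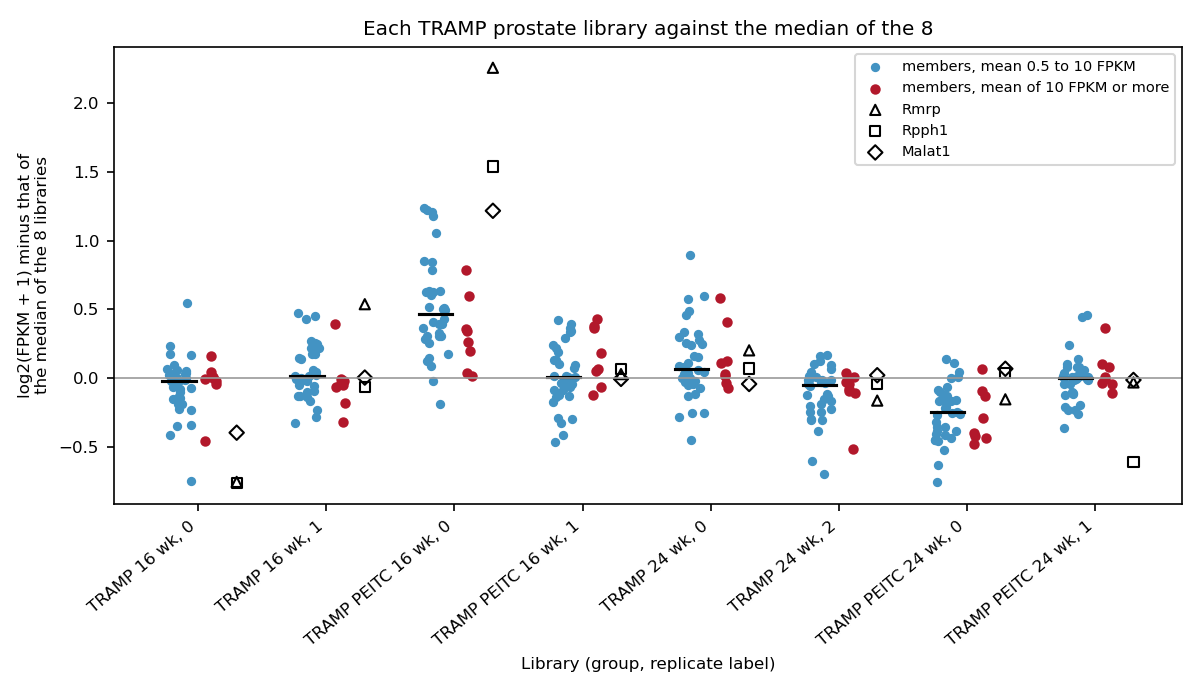
Deviation of each TRAMP prostate library (horizontal axis) from the median of the 8 on the log2(FPKM + 1) scale (vertical axis) for the 34 tested members with a mean of 0.5 to 10 FPKM (blue, black bar is their median), the 8 members with a mean of 10 FPKM or more (red) and 3 non-coding RNAs (open symbols). Replicate 0 of the PEITC group at 16 weeks sits above the rest, with its blue median at 0.46 and Rmrp at 2.26, and replicate 0 of the PEITC group at 24 weeks has its blue median at −0.25.

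Among the members named above, H1fx and Hist3h2ba were at least as high in the partner of that library, while H1f0 and Hist1h1c were highest in it. H1fx had 56.4 and 63.4 FPKM under PEITC and 33.7 and 37.2 on control diet at 16 weeks, a log2 difference of 0.74 ± 0.10 that did not pass over all genes (unadjusted p = 0.000103, adjusted p = 0.438), and replicate 1 was the higher. At 24 weeks it had 49.1 and 60.6 FPKM against 44.4 and 44.2 (0.29 ± 0.10, adjusted p = 0.496). Hist3h2ba had 15.03 and 15.06 FPKM under PEITC against 12.1 and 10.7 at 16 weeks (0.38 ± 0.15, adjusted p = 0.470), and 11.5 and 11.4 against 8.12 and 9.92 at 24 weeks (0.32 ± 0.15, adjusted p = 0.557). H1f0 had 163 and 145 FPKM against 126 and 113 at 16 weeks (0.36 ± 0.12, adjusted p = 0.438), and 117 and 138 against 129.8 and 124 at 24 weeks, where the difference was 0.00 ± 0.12. Hist1h1c had 199.8 and 170.4 FPKM against 133 and 131 at 16 weeks (0.48 ± 0.19, adjusted p = 0.459) and 108 and 129 against 175 and 124 at 24 weeks (−0.32 ± 0.19, adjusted p = 0.619). None of these passed at either age.

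Age was compared within TRAMP mice. On control diet 0 of 42 members passed between 24 and 16 weeks (limma; background 0.00748%), with 4 at an unadjusted p under 0.05 and a median of −0.00. Hist1h2ah had 0.599 and 0.253 FPKM at 24 weeks against 0.906 and 1.27 at 16 weeks (−0.56 ± 0.17, adjusted p = 0.201), Hist1h2ad 0.994 and 0.924 against 1.83 and 1.70 (−0.50 ± 0.12, adjusted p = 0.178), and Hist2h2be 6.93 and 6.65 against 8.71 and 9.49 (−0.37 ± 0.09, adjusted p = 0.178). On PEITC 0 of 42 passed (background 0%), with 9 at an unadjusted p under 0.05; 41 of 42 differences were negative and the median was −0.39. Without replicate 0 at 16 weeks that median was −0.18 and 32 of 42 were negative.

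The TRAMP effect itself was compared between the ages. Of the 42 members 1 passed (background 0.366%, with 0.329% higher and 0.0374% lower): H1fx, whose rise was larger at 24 than at 16 weeks by 1.09 ± 0.16 on the log2 scale (adjusted p = 0.0469). The call held under 3 of 16 alternatives, was lost whichever TRAMP or 24-week wild type library was left out (adjusted p of 0.0675 to 0.149), and stood at 0.75 with a GC trend removed (adjusted p = 0.152). The 24-week wild type libraries had 7.78 and 7.81 FPKM and the single 16-week wild type library had 14.05. In 32 of 42 members the difference was positive, with a median of 0.33 beside −0.01 over all tested genes, and the 16-week side rests on that single wild type library with its seminal vesicle RNA. With the 24-week wild type libraries as the control for the 16-week TRAMP libraries, 18 members passed, 10 higher and 8 lower. Over all genes 5626 of 13375 passed with that control. Of the 18 members 13 were among the 16, and the median over the 42 was 0.10 in place of −0.18.

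The tumor was a single library, so its tests borrow the spread of the other groups. Against TRAMP prostate at 24 weeks 3 of 42 members passed, all lower in the tumor, against a background of 11.8%, with 5.59% higher and 6.17% lower. Hist1h1c had 73.0 FPKM in the tumor, the lowest of the 12 libraries, against 175 and 124 (−1.001 ± 0.23, adjusted p = 0.0309), and the call was lost without TRAMP replicate 0 (−0.75, adjusted p = 0.077). Hist1h2be had 1.36 FPKM against 3.51 and 2.73 (−0.80 ± 0.21, adjusted p = 0.0492), and Hist2h2be had 4.80 against 6.93 and 6.65 (−0.42 ± 0.11, adjusted p = 0.0473). Those calls were lost without either TRAMP library (0.150 and 0.057 for Hist1h2be, 0.130 and 0.087 for Hist2h2be). The largest differences that did not pass were Hist1h4c (−1.05, adjusted p = 0.092) and Hist1h4h (−0.94) below, and Hist2h2bb (0.48) and Hist1h2ac (0.42) above.

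Against wild type prostate at 24 weeks, 21 of 42 members differed in the tumor, 8 higher and 13 lower, against a background of 52.2%, with 26.4% higher and 25.8% lower. The tumor stood farthest above wild type in H1fx (2.10 ± 0.13), Hist3h2ba (1.61 ± 0.19) and Hist1h2ac (1.49 ± 0.34), and farthest below in Hist1h4h (−2.25 ± 0.50), Hist1h1c (−1.45 ± 0.23) and Hist1h2be (−1.41 ± 0.21). Hist3h2a, level in the TRAMP prostates, had 48.2 FPKM in the tumor against 66.5 and 57.4 in wild type (−0.35 ± 0.11, adjusted p = 0.0328), a call lost under 7 of 12 alternatives, among them without wild type replicate 0 (−0.25, adjusted p = 0.121). Hist1h2bf and Hist1h2bh also passed in this comparison and in no other, at −1.11 and −0.69. Without wild type replicate 1 both calls were lost (adjusted p = 0.0672 for Hist1h2bf, and −0.43 with adjusted p = 0.162 for Hist1h2bh), and that of Hist1h2bh was lost under 6 of 12 alternatives. This comparison and the previous ones share the wild type or TRAMP libraries. Over all 10 comparisons 26 members were called at least once and 16 never, and the matching share over all tested genes was not counted.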

How the data were processed

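The 12 RNA-seq libraries were deposited as FPKM per gene for 24421 genes. Per the submitters' processing notes the tools were HISAT2, Picard, featureCounts and DESeq2 on mm10, while the sources used here give no versions, strand or gene annotation. The authors' FPKM values were used as deposited, without counts. Members and gene lists were chosen with earlier results of these data known.

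Values were tested as log2(FPKM + 1), a scale that understates the change of low genes, with limma 3.58.1 in R 4.3.3 (trended variance, 7 group means, 5 residual degrees of freedom) over the 13375 genes averaging 0.5 FPKM or more. P-values were Benjamini-Hochberg adjusted over all of them, two-sided, and called under 0.05. The single 16-week wild type library and the single tumor borrow the spread of the other groups. The code was tested on simulated data. Members named were those called in any comparison, the most abundant ones and, of each context list, those with the largest change. Alternatives were other pseudocounts, filters and scalings, a GC trend, only the groups compared, a replicate block and leaving out each library. Positions are GENCODE M21 (GRCm38), and promoters RefSeq GRCm38.p6. Relative depth was read from the ratio of low values between libraries over all genes, where 1 fragment makes a visible step. With that depth the step could then be read in 43 members. In 31 of 42 it matched the RefSeq length within 3%.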

Additional observations from a re-analysis of the deposited data

Results flagged for a closer look

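H1fx stood apart by a difference between ages: its TRAMP effect at 24 weeks exceeded that at 16 weeks by 1.09 on the log2 scale (limma interaction, adjusted p = 0.0469). The call held under 3 of 16 alternatives and was lost under 13, with 0.75 once a GC trend was removed (adjusted p = 0.152). The 16-week side rests on the single wild type library at 14.05 FPKM, beside 7.78 and 7.81 FPKM at 24 weeks. That library also holds seminal vesicle RNA, and its part in the difference was not tested.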

How the results depend on the processing

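No called member reversed its direction under any alternative. The results above name only some of the losses. At 24 weeks the replicate block also took the TRAMP calls of Hist1h4h (−0.90), Hist1h2be (−0.43), Hist1h3a (0.34) and Hist1h2ae (−0.59). That of Hist1h3c was lost under 9 of 13 alternatives. Among these were quantile normalization (limma, adjusted p = 0.0532), the GC trend removed (0.0692) and a pseudocount of 5 (0.107). Called under every alternative were 5 of 14 members in TRAMP against wild type at 24 weeks, 7 of 16 at 16 weeks, 12 of 21 in the tumor against wild type and 0 of 3 in the tumor against TRAMP. At 24 weeks TRAMP against wild type gave 14 members called, 7 to 12 when each library was left out in turn, and 6 with the replicate block. At 16 weeks it gave 16, and 9 to 10 when each TRAMP library was left out. The tumor against wild type gave 21, and 13 to 17 with a library left out. The tumor against TRAMP gave 3, but 5 with a pseudocount of 0.1, 1 with a pseudocount of 5, 0 with no filter, 0 with only the groups compared, 0 to 2 with a library left out, and 1 with replicate 0 of the TRAMP PEITC group at 16 weeks left out of the pooled spread, an alternative chosen after seeing the data. For the TRAMP effect between ages the 1 call became 0 with a pseudocount of 0.1 or 5, a filter of 2 FPKM, quantile normalization, the 50 most abundant genes left out, the GC trend removed, that library left out of the spread, or any library left out. Calls over all tested genes fell in many of these settings too. At 24 weeks TRAMP against wild type gave 6014, and 3986 with the replicate block. The tumor against TRAMP gave 1573, and 0 with only the groups compared. With a library left out, these comparisons with wild type or TRAMP prostate also gave fewer calls over all genes. The losses are therefore not read as a trait of the members. The causes were not tested. Diet and age comparisons gave 0 under every alternative. Leaving the 50 most abundant genes out of the scaling moved the median of all genes at 16 weeks to 0.12. The labels do not say that replicate numbers pair the samples, and the deviations of the libraries numbered 0 correlated from −0.35 to 0.28 between the 5 groups of 2 (0.01 between wild type and TRAMP at 24 weeks, which share only that number). Low members rest on few fragments, and near-identical coding parts limit which copy a fragment can be given to.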
